A study of Mus musculus with 2 samples.

Results

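Basophils and their precursors were sought among single bone marrow cells of WT mice and of mice with LCR1 knocked out (KO). A barcode counted as a member of the set when it had at least 1000 genes detected, at most 10% of its unique molecular identifiers (UMIs, which stand for single captured transcripts) from mitochondrial genes, and a basophil pattern in its raw UMIs. That pattern asked for at least 1 UMI of Ms4a2, at least 1 of Cd200r3 or Fcer1a, no Gata3 unless Cpa3 was present, no Siglech, and no Cd3d, Cd3e or Cd3g. Members were thus chosen by measured UMIs of these genes. The rule held for 392 of the 7633 barcodes within the limits on genes and mitochondrial UMIs, 216 of 3290 in WT and 176 of 4343 in KO. The levels of these rule genes are therefore a description and not a result.

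The study compared bone marrow progenitors of C57BL/6 mice, wild-type or homozygous for the LCR1 deletion, and its labels concern progenitors of ILC2, the group 2 innate lymphoid cells. Animals were 8 to 12 weeks old, were pooled by genotype with equal numbers of males and females, and gave 1 library per genotype on the 10x Genomics droplet platform, which reads the 3′ ends of transcripts. Crushed-bone marrow was sorted for viable, CD45-positive, lineage-negative, CD127-positive cells. With 1 pooled library per genotype there is no replicate spread, so no test was made, every interval given covers counting error only, and a difference between the libraries cannot be told apart from one between their animals, sorts or preparations. Where LCR1 lies is not in the labels, and no transcript here checks the genotype.

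The libraries differed in depth. WT had 20293 deposited barcodes with a median of 936 UMIs, and KO had 8476 with a median of 4079. Within the limits the medians were 5372 and 7261 UMIs, and among the members they were 5517 (1762 to 73628) in WT and 6803 (1760 to 66746) in KO. The members held 1943460 UMIs in WT and 1615069 in KO, with median mitochondrial shares of 4.27% and 4.45%. The libraries shared 75 barcode sequences, among them those of 1 WT and 4 KO members, and no barcode was a member in both.

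Basophils are rare granulocytes that leave the marrow nearly mature and carry the high-affinity IgE receptor, made of an alpha chain (Fcer1a), a beta chain (Ms4a2) and a shared gamma chain (Fcer1g). Crosslinking of that receptor releases histamine and granule proteases and starts the synthesis of lipid mediators, chemokines and interleukin-4. Their growth depends on interleukin-3, and the transcription factors GATA2 and C/EBP alpha direct the fate of their progenitors. Mcpt8 and Prss34 encode serine proteases of mouse basophil granules.

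GATA factors bind the letters GATA with preferred neighbours. Windows of 250 bases before the transcription start are shown for the 3 marker genes of the rule and for both basophil proteases. The rule did not use the proteases. Each is given 5′ to 3′ on the strand of its gene, from RefSeq on GRCm38.p6. Capitals mark a match to AGATAA or to AGATAG, or the same with TGATAA or with TGATAG, on either strand, where TTATCT is the reverse complement of the first.

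Ms4a2: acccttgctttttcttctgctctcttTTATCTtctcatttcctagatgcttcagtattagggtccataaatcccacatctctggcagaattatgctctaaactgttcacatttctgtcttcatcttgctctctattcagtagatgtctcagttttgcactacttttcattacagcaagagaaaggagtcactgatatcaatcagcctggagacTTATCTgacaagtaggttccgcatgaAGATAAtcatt

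Fcer1a: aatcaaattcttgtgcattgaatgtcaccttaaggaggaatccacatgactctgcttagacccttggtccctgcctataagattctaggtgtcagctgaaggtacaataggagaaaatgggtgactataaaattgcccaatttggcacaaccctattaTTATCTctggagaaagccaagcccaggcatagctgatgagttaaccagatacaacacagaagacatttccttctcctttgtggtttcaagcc

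Cd200r3: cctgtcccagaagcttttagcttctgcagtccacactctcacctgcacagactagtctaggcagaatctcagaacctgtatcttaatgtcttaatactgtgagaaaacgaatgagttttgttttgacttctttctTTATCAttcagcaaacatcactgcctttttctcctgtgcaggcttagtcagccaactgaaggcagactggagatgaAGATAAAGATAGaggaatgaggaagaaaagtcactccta

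Prss34: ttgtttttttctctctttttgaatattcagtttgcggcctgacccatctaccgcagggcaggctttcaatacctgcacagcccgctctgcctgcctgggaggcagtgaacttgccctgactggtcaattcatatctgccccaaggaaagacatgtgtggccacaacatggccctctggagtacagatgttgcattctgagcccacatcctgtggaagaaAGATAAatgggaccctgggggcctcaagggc

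Mcpt8: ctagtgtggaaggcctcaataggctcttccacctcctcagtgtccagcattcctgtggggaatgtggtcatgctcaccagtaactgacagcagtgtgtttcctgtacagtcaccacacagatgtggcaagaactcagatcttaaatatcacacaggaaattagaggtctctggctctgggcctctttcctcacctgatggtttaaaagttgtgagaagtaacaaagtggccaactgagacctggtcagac

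The Ms4a2 window, chr19:11623720-11623969 on the minus strand, held 3 matches, which began 224, 37 and 11 bases before the start. The Fcer1a window, chr1:173227230-173227479 on the minus strand, held 1, which began 92 bases before the start. The Cd200r3 window, chr16:44943428-44943677 on the plus strand, held 3, of which the AGATAA at 39 bases and the AGATAG at 33 bases before the start adjoined each other. The Prss34 window, chr17:25298144-25298393 on the plus strand, held 1 at 31 bases. The Mcpt8 window, chr14:56085198-56085447 on the minus strand, held no match. Part of the Mcpt8 window lies within the GENCODE span of the gene given below, because the windows were set by RefSeq starts. Of 27 matched genes that were high in the members, 10 (37.0%) had at least 1 match, against 29.7% of 27025 genes with a window. The 27 include the rule genes Ms4a2, Cd200r3, Fcer1a and Cpa3, which are high by selection and each had at least 1 match. Nothing is therefore read from these 2 shares. A match is a description of the letters and shows no binding.

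Of the 5 markers given for the set, Ms4a2, Cd200r3 and Fcer1a are rule genes, so every member has at least 2 of the 5 by selection and their number describes the members without supporting the label. At least 3 of Ms4a2, Cd200r3, Fcer1a, Cyp11a1 and Csrp3 were detected in 198 WT members (91.7%, exact binomial interval 87.1 to 95.0) and in 175 KO members (99.4%, 96.9 to 99.99), and all 5 in 120 (55.6%) and 112 (63.6%). Mcpt8, which the rule did not use, was detected in 208 of 216 WT members and 171 of 176 KO members, and Prss34 in 199 and 164. The 18 WT members with fewer than 3 markers had a median of 2206 UMIs and stood at 3863 CPM (a gene's UMIs as a share of all UMIs summed over the cells, on the usual per-million scale) for Prss34, against 29658 CPM in the other 198. They also stood at 1093 CPM for Dntt, the terminal transferase of lymphoid progenitors, against 187 CPM. The 1 KO member of this kind had no Prss34 UMI, 1384 CPM of Id2, 1691 CPM of Cd7 and 1538 CPM of Il7r.

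Members just inside the limits differed in number between the libraries, in a direction that depended on the limit. With exactly 1 UMI of Ms4a2 there were 27 WT and 6 KO members, and with exactly 1 UMI of Cd200r3 and Fcer1a together 24 and 4, in whom Prss34 stood at 2100 and 6446 CPM. Just above the limit of 1000 genes there were 21 and 4, and 17 and 4 barcodes lay just below it, down to 900 genes. Barcodes that missed only the Ms4a2 requirement numbered 82 and 71, and those missing only Cd200r3 or Fcer1a numbered 78 and 49. In these near misses Prss34 stood between 33.8 and 1037 CPM, below its level in the members just inside. Those missing only the absence of Siglech numbered 21 and 2, with Prss34 at 24020 and 3487 CPM, and those missing only the absence of CD3 genes 11 and 6. At the mitochondrial limit, 10 WT and 14 KO members lay between 9% and 10%, and 7 and 10 barcodes lay between 10% and 11%. In all, 20 WT and 67 KO barcodes met every requirement but the mitochondrial limit.

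Markers of some other cells were near 0 in the members, and those of others were not. Of the 10 mast cell markers, Mcpt1, Mcpt4, Tpsab1, Tpsb2, Mrgprb1 and Mrgprb2 had no UMI in any member, and the list summed to 27.3 CPM in WT and 33.4 in KO. Of the 9 eosinophil markers, Ear1, Ear2 and Ear6 were at 0 and the list summed to 34.0 CPM in WT and 17.96 CPM in KO. Cd79a, a B cell receptor component, was detected in 5 WT and 4 KO members, and Ncr1 or Klrb1c of natural killer cells in 3 and 3. The 14 neutrophil and monocyte markers, which include Mpo and Ctsg, summed to 3361 CPM in WT and 3079 in KO members, against 404 and 179 CPM in the other barcodes, and Ly6g was at 0. The 12 erythroid and megakaryocyte markers, which include Itga2b, summed to 482 and 737 CPM, against 820 and 156 CPM, and Vwf was at 0. The 10 lymphoid progenitor markers summed to 941 and 626 CPM, against 3190 and 3241 CPM, and the 12 natural killer and T cell markers to 518 and 511 CPM, against 436 and 590 CPM. The 10 B cell markers summed to 137 and 109 CPM, against 1210 and 896 CPM, and the 10 plasmacytoid dendritic cell markers to 337 and 199 CPM, against 3038 and 2043 CPM. Il1rl1, the interleukin-33 receptor gene that ILC2 and mast cells also carry, was detected in 57.4% of WT and 54.0% of KO members. The summed ILC2 list (11 genes) stood at 522 CPM in WT and 326 in KO members, against 1622 and 1252 CPM in the other barcodes. A UMI of Gata3 or of Calca, both ILC2 genes, was present in 66 WT members (30.6%) and 16 KO members (9.09%), and a UMI of a haemoglobin gene in 31 and 1. Doublets were not called, and counts without the barcodes with most UMIs are among the alternatives.

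The members made up 6.57% of kept WT barcodes (exact binomial interval 5.74 to 7.47) and 4.05% of kept KO barcodes (3.49 to 4.68), a ratio of KO to WT of 0.617. The order depended on the limit on genes: with 500 genes in place of 1000 the shares were 4.08% (429 of 10519) in WT and 4.10% (184 of 4489) in KO. The sort on CD127 and the lineage antibodies sets these shares, and they do not measure basophils of whole marrow.

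Genes of the basophil programme were far above the level of the other kept barcodes in both libraries. Among 11489 genes with enough UMIs, 562 (4.89%) were at least 2-fold higher in the members of both libraries and 669 (5.82%) at least 2-fold lower. The list of basophil identity genes had 24 of 27 measured members higher, the list of proteases and granule genes 10 of 10, and the list of mediators 10 of 15 with 1 lower. The rule used this contrast, so nothing is read from these counts.

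**Figure D1:**
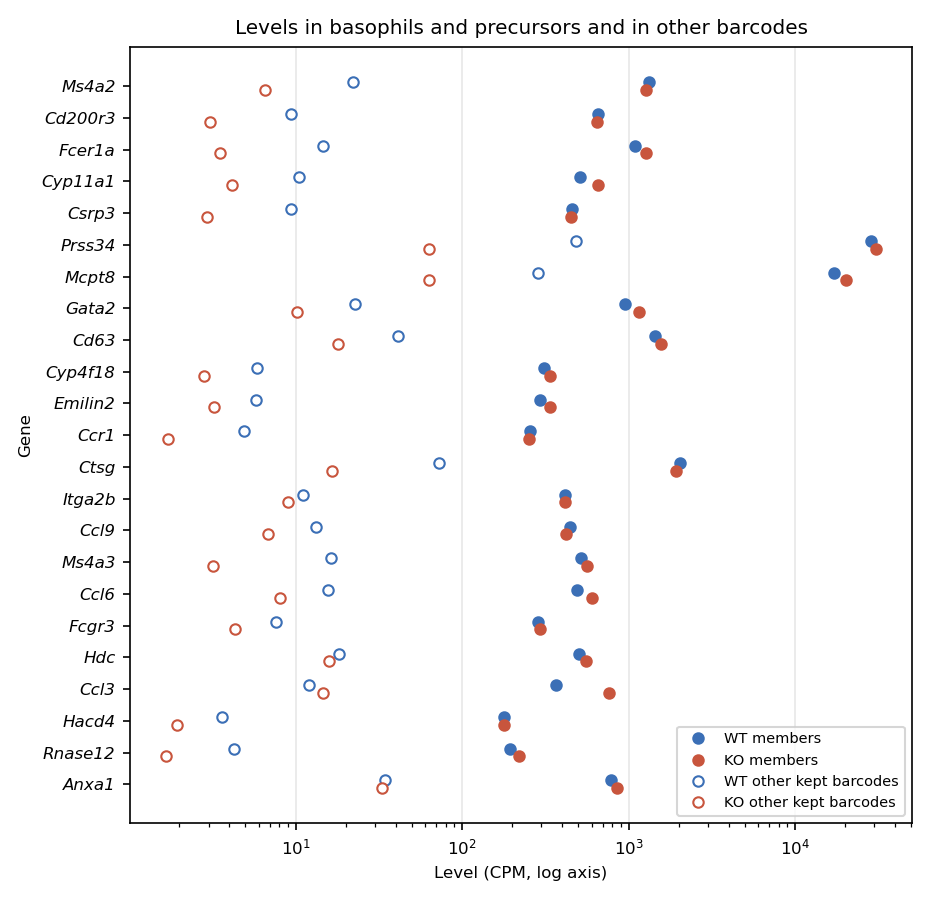
Level of each gene in CPM on a log axis, in the members (filled points) and in the other kept barcodes (open points) of the WT library (blue) and the KO library (red). Each point is a sum over cells of 1 library, and the filled points lie to the right of the open ones for each gene, such as Prss34 at 28796 CPM in WT members against 481 CPM in the other WT barcodes.

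Prss34 (chr17:25298394-25300165) stood at 28796 CPM in WT members and 30869 in KO members, and at 481 and 63.2 CPM in the other barcodes. Mcpt8 (chr14:56082166-56085273) stood at 17117 and 20179 CPM, against 286 and 63.3 CPM. In the members KO over WT was 1.07 for Prss34 and 1.18 for Mcpt8, while outside them the WT level of Prss34 was 7.61-fold that of KO. Because free RNA puts UMIs of such abundant genes into cells that do not make them, cells were also compared after thinning each to 2000 UMIs. A Prss34 UMI was then present in 88.5% of WT and 93.1% of KO members, and in 24.0% and 4.44% of early B cells (cells with Cd79a and Ebf1), which should lack it. For Mcpt8 the shares were 92.5% and 96.0% in members and 9.33% and 5.00% in early B cells.

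Other granule genes were high as well. Cpa3, a carboxypeptidase that basophils share with mast cells and one of the rule genes, stood at 2451 CPM in WT and 2692 in KO. Ctsg, the cathepsin G gene, stood at 2037 and 1940 CPM against 72.9 and 16.5 CPM in the other barcodes. Mpo, the myeloperoxidase of early myeloid cells, stood at 1020 and 981 CPM. Cd63, a granule membrane protein that reaches the surface on degranulation, stood at 1449 and 1568 CPM. Hdc, the enzyme that makes histamine, stood at 503 and 555 CPM, and Slc18a2, a transporter that loads amines into vesicles, at 175 and 181 CPM.

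Fcer1a and Ms4a2 are rule genes, and their joint presence was fixed by selection. Fcer1a (chr1:173221284-173227214) stood at 1089 and 1282 CPM in WT and KO members, Ms4a2 (chr19:11615523-11623719) at 1319 and 1277 CPM, and Fcer1g at 1373 and 1588 CPM. Of 20 measured genes of IgE receptor signalling, 5 were at least 2-fold above the other barcodes in both libraries and none below, beside 4.89% of all genes in the higher direction. These were the 3 chains, of which Fcer1a and Ms4a2 had to be high by the rule, the adaptor Lat2 (362 and 412 CPM) and the scaffold Gab2 (82.8 and 66.3 CPM). The kinases Lyn (69.0 and 76.2 CPM) and Syk (78.2 and 61.9 CPM) were not among them. The CD200 receptor family gene Cd200r3 (chr16:44943678-44981380) stood at 653 and 648 CPM.

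Receptors for growth factors and chemokines followed. Il3ra, the alpha chain of the interleukin-3 receptor, stood at 163 and 182 CPM against 20.0 and 17.8 CPM in the other barcodes, and its shared beta chain Csf2rb at 313 and 308 CPM against 17.3 and 12.3 CPM. Crlf2, a chain of the receptor for thymic stromal lymphopoietin, stood at 158 and 145 CPM, and Il18rap, an accessory chain of the interleukin-18 receptor, at 330 and 319 CPM. Il7r, which encodes the CD127 used in the sort, stood at 240 CPM in WT and 169 in KO members, against 796 and 795 CPM in the other barcodes. After thinning, 33.0% and 24.9% of members had an Il7r UMI. Ccr1, a chemokine receptor of myeloid cells, stood at 257 and 252 CPM against 4.89 and 1.71 CPM.

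Among transcription factors of the lineage, Gata2 (chr6:88193891-88207032) stood at 954 CPM in WT and 1157 in KO members against 22.6 and 10.2 CPM outside. Cebpa stood at 305 and 314 CPM and Runx1 at 476 and 495 CPM. Gata1, the erythroid and megakaryocytic GATA factor, stood at 36.0 and 32.8 CPM against 1.95 and 1.61 CPM. Of 25 measured factors, 9 were at least 2-fold higher in both libraries and 3 lower, beside 4.89% and 5.82% of all genes. The lower ones were Runx2, Irf8 and the rule gene Gata3.

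Mediators and enzymes completed the set. The chemokine genes Ccl9 (447 and 421 CPM) and Ccl6 (489 and 607 CPM) stood more than 2-fold above the other barcodes. Il4 stood at 40.6 and 42.1 CPM and Il6 at 64.8 and 74.3 CPM, and Il13 had 1 UMI in WT and 6 in KO. Alox5ap, which presents arachidonic acid for leukotriene synthesis, stood at 997 and 1088 CPM, and Alox15, a lipoxygenase, at 129 and 147 CPM. Cyp11a1, the enzyme that turns cholesterol into pregnenolone, stood at 512 and 660 CPM (KO over WT 1.29, exact conditional binomial interval 1.18 to 1.41). Of the 7 measured steroid synthesis genes it was the only one more than 2-fold above the other barcodes, and Hsd3b1, Hsd3b6 and Nr5a1 had no UMI in any member. Csrp3, a LIM domain protein otherwise known from striated muscle, stood at 458 and 451 CPM.

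Genes of precursors were found in a minority of members. At least 1 UMI of Kit or Cd34, surface proteins of haematopoietic progenitors, was present in 51 WT members (23.6%, 18.1 to 29.8) and 47 KO members (26.7%, 20.3 to 33.9), of whom 27 and 29 had exactly 1. These members were deeper, with medians of 12370 and 12132 UMIs against 4388 and 5892 in the rest, and after thinning the shares were 8.50% and 6.94%. The part of depth in this split was not tested. Kit itself stood at 23.7 and 31.6 CPM in all members, below its 48.5 and 58.9 CPM in the other barcodes.

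Members with Kit or Cd34 had lower levels of mature basophil genes. Among 3203 genes measured for this split, 103 (3.22%) were at least 1.5-fold higher with Kit or Cd34 in both libraries and 285 (8.9%) lower, and the median log2 ratio over all of them was -0.10 in WT and -0.07 in KO. Of 26 basophil identity genes 13 were lower and none higher, with medians of -0.64 and -0.67. The 13 include the rule genes Ms4a2 and Cd200r3, and Cd200r3 is also among the 11 lower receptors below. The rule asked for UMIs of these genes also in the shallower members without Kit or Cd34, so nothing is read from them. Of 15 chemokine and inhibitory receptors 11 were lower and 1, Itga4, was higher, and of 8 mediators 6 were lower and none higher. Of 9 progenitor genes 4 were higher (Prtn3, Cd27, Sox4 and Npm1) and 1, Itgb7, was lower. None of 20 cell cycle genes passed this limit in either direction.

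Ccl6 stood at 119 CPM with Kit or Cd34 and 758 CPM without in WT, and at 254 and 862 CPM in KO. The rule gene Cd200r3, from which nothing is read here, stood at 334 and 884 CPM in WT and at 357 and 859 in KO. Gata2 stood at 628 and 1191 CPM in WT and at 813 and 1407 CPM in KO. The interleukin-3 receptor beta chain Csf2rb stood at 175 against 414 CPM in WT and at 184 against 398 in KO. Both libraries thus gave Ccl6, Gata2 and Csf2rb lower with Kit or Cd34. The proteases differed less: Prss34 stood at 23597 against 32565 CPM in WT and at 26952 against 33703 in KO.

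Other genes lower beside Kit or Cd34 in both libraries included C3ar1, the receptor for complement C3a, and the receptor gene Lilr4b. Lgals3, which encodes galectin-3, and Il18r1, the interleukin-18 receptor chain, were also lower. Lilr4b stood at 136 against 492 CPM in WT and at 168 against 528 in KO. Genes higher beside Kit or Cd34 included Dntt, at 380 against 100 CPM in WT and 121 against 31.0 in KO, Bcl11a, a transcription factor of lymphoid progenitors, at 126 against 45.3 and 76.7 against 27.8 CPM, and Mif, a cytokine, at 424 against 146 and 332 against 144 CPM. Hspe1, a mitochondrial chaperone, stood at 282 against 116 CPM in WT and 243 against 73.6 in KO, and Idh2, a mitochondrial dehydrogenase, at 111 against 40.8 and 97.3 against 33.1 CPM. Prtn3, the proteinase 3 gene, stood at 182 against 32.8 CPM in WT, where 1 cell gave 54.3% of its UMIs, and at 73.7 against 23.5 CPM in KO.

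**Figure D2:**
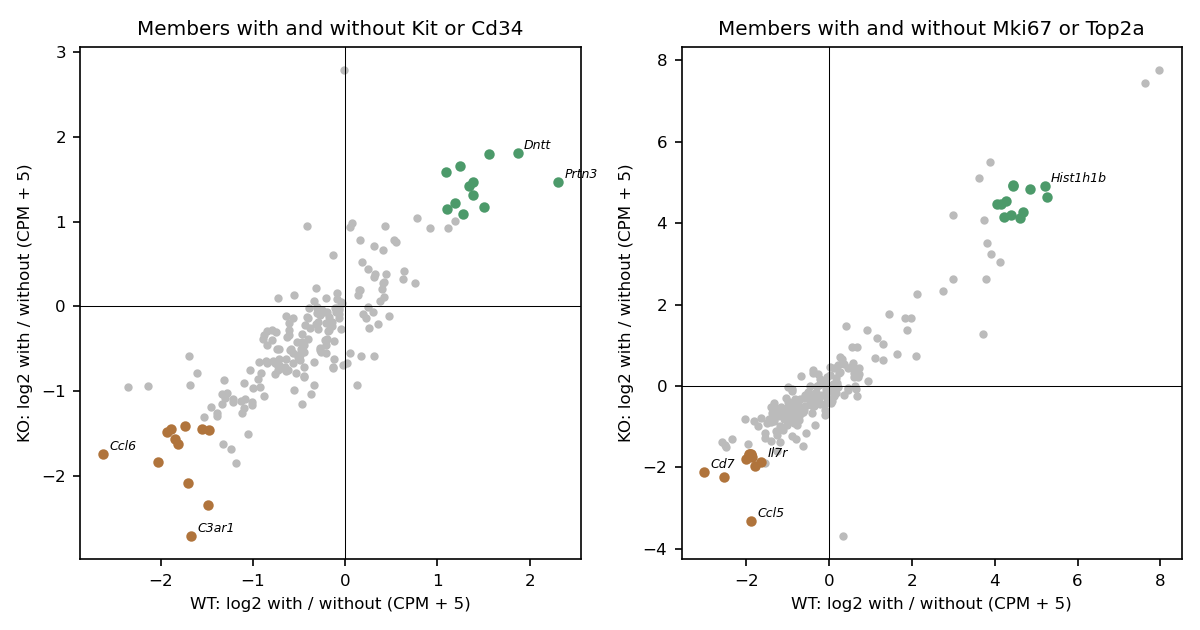
Log2 ratio of CPM + 5 between members with and without Kit or Cd34 (left) and with and without Mki67 or Top2a (right), in WT on the horizontal axis and in KO on the vertical axis. Each point is 1 described gene, green and brown mark the genes named as highest and lowest in both libraries, and most points lie near the diagonal, with Ccl6 at -2.62 in WT and -1.75 in KO on the left.

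Many members were in cycle. After thinning, a UMI of Mki67 or Top2a, genes of dividing cells, was present in 116 of 200 WT members (58.0%, exact binomial interval 50.8 to 64.9) and in 75 of 173 KO members (43.4%, 35.9 to 51.1), with 16 and 3 shallower members left out. Without thinning the shares were 70.4% and 56.3%. The same thinned measure was lower in KO in the other sets too, at 54.4% in WT and 45.8% in KO in Siglech-positive cells (at least 2 Siglech UMIs, a plasmacytoid dendritic cell marker), 70.7% in WT and 45 of 180 cells in KO in early B cells, and 15.0% and 9.08% in ILC2 (cells with Gata3 and Il1rl1). Free RNA of Mki67 and Top2a can add to these shares, and its part was not tested. Among members with Kit or Cd34, 40 of 51 in WT and 31 of 47 in KO had Mki67 or Top2a before thinning, against 112 of 165 and 68 of 129 of those without.

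Members without Mki67 or Top2a had higher levels of several chemokine and receptor genes. Of 3240 genes measured for this split, 378 (11.7%) were at least 1.5-fold higher with Mki67 or Top2a in both libraries and 299 (9.23%) lower, with medians over all of them of -0.05 in WT and -0.01 in KO. Of 9 mediators 8 were lower in the cycling members, and of 15 chemokine and inhibitory receptors 10. Ccl6 stood at 244 against 1445 CPM in WT and 279 against 1332 in KO, and Ccr2, a receptor for monocyte chemoattractants, at 53.0 against 229 and 44.1 against 165 CPM. Il7r stood at 166 against 529 CPM in WT and 90.8 against 342 in KO, and Cd7, a surface protein of lymphoid cells, at 23.3 against 224 and 28.8 against 141 CPM. Cyp11a1 was also lower in cycling members, at 422 against 861 and 508 against 996 CPM.

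Of 9 measured proteases and granule genes 2, Mcpt8 and Ctsg, were higher in the cycling members of both libraries and 1, Hdc, was lower. Over all genes of this split the shares were 11.7% higher and 9.23% lower. Mpo, from the progenitor list, stood at 1259 CPM in cycling against 90.6 CPM in the other WT members, and at 1201 against 495 CPM in KO. Ctsg stood at 2416 against 559 CPM and at 2214 against 1336 CPM, and Mcpt8 at 19480 against 7923 CPM and at 22694 against 14619 CPM. All 23 measured cell cycle genes were higher, as the split itself would give.

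Between KO and WT, most genes of the members differed little. Of 3316 measured genes, those with 50 UMIs or more in the libraries together and no less than 50 CPM in 1 of them, 21 (0.633%) were at least 2-fold higher in KO and 13 (0.392%) at least 2-fold lower, on the scale of log2 of CPM + 5, and the median over all of them was -0.04. At 1.5-fold, the limit used for lists, 52 (1.57%) were higher and 82 (2.47%) lower. None of 26 basophil identity genes passed 1.5-fold (median 0.11), nor did any of 18 genes of IgE receptor signalling (0.14), 10 proteases and granule genes (0.11), 15 cytokine receptor and STAT5 genes (-0.02), 14 chemokine and inhibitory receptors (-0.01), 12 glycolysis genes (-0.03) or 6 interferon response genes (-0.14). The lists of basophil identity, IgE receptor signalling, granule genes and chemokine and inhibitory receptors hold rule genes, on which members of both libraries were selected. Of 19 transcription factors 2 were lower, the rule gene Gata3 and Irf8.

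**Figure D3:**
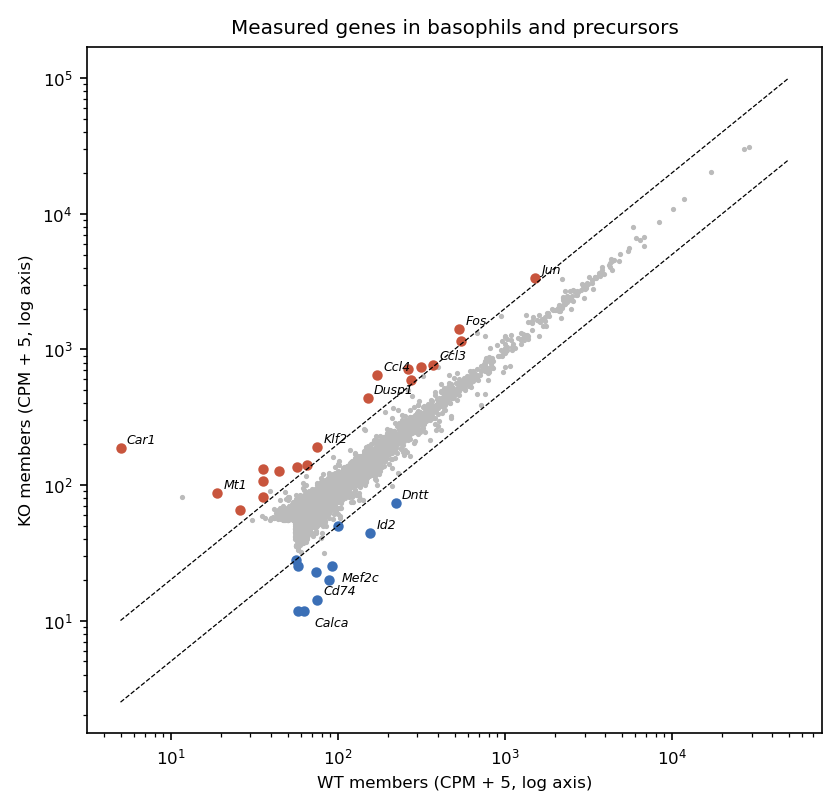
Level of each of 3316 measured genes in WT members (horizontal) and KO members (vertical), as CPM + 5 on log axes. Grey points are all measured genes, red and blue points the described genes at least 2-fold higher and lower in KO, dashed lines mark 2-fold, and most points lie between the lines.

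The chemokine genes Ccl3 and Ccl4 and most measured immediate early genes, which cells switch on within minutes of a stimulus, were higher in KO members, while Ccl6 and Ccl9 did not pass 1.5-fold. Ccl4 (chr11:83662584-83664683), a chemokine, stood at 167 CPM in WT and 641 in KO, a ratio of 3.85 (exact conditional binomial interval 3.39 to 4.37). Its neighbour Ccl3 (chr11:83647844-83649355) stood at 368 and 768 CPM (2.09, 1.90 to 2.29). After thinning, a Ccl4 UMI was present in 24.0% of WT and 39.3% of KO members. It was present in none of 75 WT early B cells and in 12.8% of KO early B cells. For the former, an approximate upper limit of 3 over the number of cells is 4.00%. For Ccl3 the shares were 42.5% and 60.1% of members, none of the WT early B cells and 2.22% of those of KO. Osm, the cytokine oncostatin M, stood at 30.9 and 76.8 CPM (2.49, 1.81 to 3.44). With Ccl3 and Ccl4 it made the 3 of 9 mediators that were at least 1.5-fold higher, beside 1.57% of all genes, while none was lower.

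The Ccl4 gap was present with and without precursor genes. KO over WT was 7.10 in members with Kit or Cd34 and 3.15 in those without, and for Ccl3 it was 4.71 and 1.73. No single cell carried either: the member with most UMIs held 11.1% of Ccl4 UMIs in WT and 7.14% in KO. Outside the members both genes stood lower: Ccl4 at 3.69 and 5.71 CPM in ILC2, at 10.8 and 51.3 CPM in Siglech-positive cells and at 9.34 and 63.5 CPM in early B cells. Ccl3 stood at 3.07 and 2.28 CPM in ILC2, at 5.97 and 17.0 CPM in Siglech-positive cells and at 6.23 and 17.98 CPM in early B cells. Ccl4 was thus also higher in KO in these 3 sets, and Ccl3 in the latter 2.

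Of 28 immediate early and stress genes listed, 21 were measured, with a median log2 ratio of 0.90. Of these, 17 were at least 1.5-fold higher in KO members and none was lower, beside 1.57% and 2.47% of all genes. Fos, a subunit of the AP-1 transcription factor, stood at 529 CPM in WT and 1411 in KO (2.67, 2.48 to 2.87). Dusp1, a phosphatase that dampens MAP kinases, stood at 146 and 434 CPM (2.98, 2.59 to 3.43), and Ier3, an early response gene, at 260 and 714 CPM (2.75, 2.47 to 3.06). Egr1, an early zinc finger factor, stood at 311 and 739 CPM, Klf2, a quiescence-linked factor, at 70.0 and 185 CPM, and Tnfaip3, which encodes the NF-kappaB inhibitor A20, at 52.0 and 131 CPM. Nfkbiz, an NF-kappaB cofactor outside that list, stood at 39.6 and 121 CPM, and Trib1, a pseudokinase that steers C/EBP alpha turnover, at 21.1 and 60.1 CPM. Jun (1509 and 3373 CPM), Ier2 (271 and 588 CPM), Chka (60.2 and 136 CPM) and Rgs1 (540 and 1151 CPM) also passed 2-fold and are named after their values were seen. The chaperone genes Hspa8 (1294 and 1234 CPM) and Hsp90aa1 (558 and 564 CPM) lay near equal levels, while the co-chaperone gene Dnajb1 was among the 17 higher genes.

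The same 21 genes had medians above 0 outside the members too. Their median log2 ratio was 0.41 in ILC2, 0.60 in Siglech-positive cells and 0.83 in early B cells, beside 0.90 in members. Fos stood at 1728 and 2747 CPM in ILC2 and at 308 and 941 CPM in early B cells. Whether the sets differ was not tested. In members with and without Kit or Cd34 the medians were 0.97 and 0.89, and in members with and without Mki67 or Top2a 0.98 and 0.55.

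**Figure D4:**
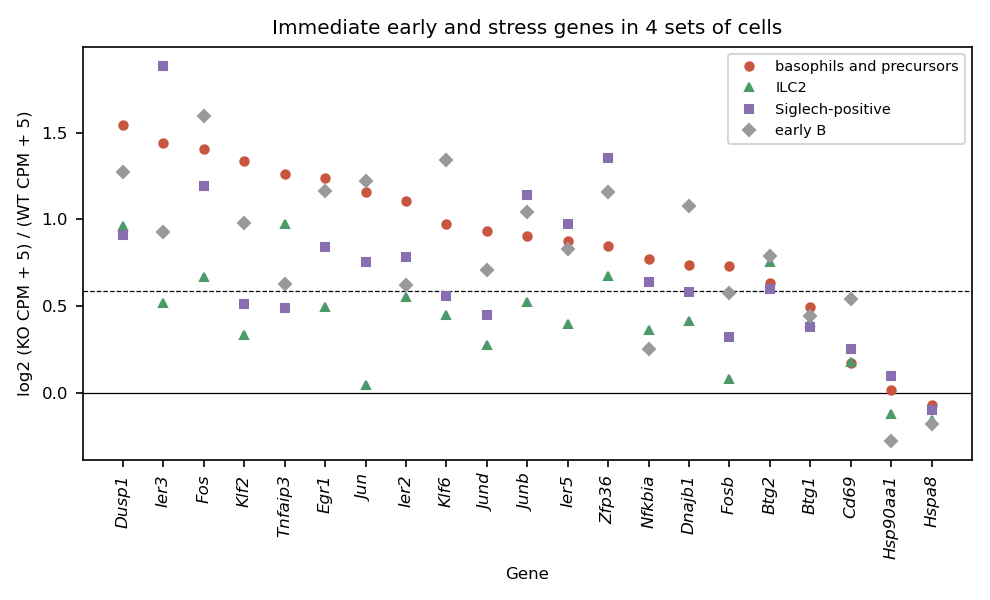
Log2 ratio of KO over WT (CPM + 5) for the 21 measured immediate early and stress genes in basophils and precursors (red circles), ILC2 (green triangles), Siglech-positive cells (purple squares) and early B cells (grey diamonds). Each point compares 1 KO with 1 WT library, the dashed line marks 1.5-fold, and 17 of 21 red circles lie above it.

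A few of the genes higher in KO rested on single cells. Car1, a carbonic anhydrase of red cell precursors, had no UMI in WT and 292 in KO, all in 1 member of 66746 UMIs. That cell also held 69.7% of the KO UMIs of the metallothionein gene Mt1 and 65.9% of those of Car2. Without each library's member with most UMIs of the gene, Mt1 stood at 8.37 CPM in WT and 25.8 in KO, and Car2 at 28.4 and 45.2 CPM. Of Ccl5, a chemokine of lymphocytes, 70.5% of the KO UMIs came from the 1 KO member with fewer than 3 markers, and without the top members it stood at 25.5 and 30.5 CPM.

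Id2 (chr12:25093799-25097140), an inhibitor of E protein transcription factors, was lower in KO members. It stood at 152 CPM in WT (exact Poisson interval 135 to 170) and 39.0 in KO (30.0 to 49.9), a 3.89-fold lower level (2.96 to 5.19). After thinning, an Id2 UMI was present in 27.5% of WT members (21.4 to 34.2) and 8.09% of KO members (4.49 to 13.2). In early B cells these shares were 10.7% and 2.78%, and in Siglech-positive cells 12.9% and 5.61%. The WT share of the members lay above both, while the KO share lay close to that of the Siglech-positive cells. Id2 was lower in KO in every other set, 3.43-fold in ILC2 (999.9 and 291 CPM), 1.70-fold in Siglech-positive cells (62.0 and 36.4 CPM) and 1.86-fold in early B cells (37.4 and 20.1 CPM).

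The ILC2 genes Calca and Gata3 were also lower in KO. Calca, a neuropeptide gene of ILC2, stood at 57.6 CPM in WT and 6.81 in KO members, and at 72.7 and 15.9 CPM in early B cells, so that its level in members did not exceed that of early B cells in either library. A single WT member of 73628 UMIs held 31.2% of its UMIs, and without each library's top member it stood at 41.2 and 4.97 CPM. The part of free RNA in the Calca level was not tested. Gata3, limited by the rule, stood at 69.5 and 17.96 CPM in members and at 60.2 and 17.98 CPM in early B cells. In members without a UMI of either gene Id2 stood at 123 CPM in WT and 35.7 in KO, and in members with at least 3 of 5 markers at 146 and 33.6 CPM. The gap was present with Kit or Cd34 (ratio 0.387) and without (0.208), and with Mki67 or Top2a (0.267) and without (0.196). Among the other Id and E protein genes, Id1 stood at 108 and 131 CPM, Tcf3 at 45.3 and 37.2 CPM, Tcf4 at 89.5 and 64.4 CPM and Tcf12 at 91.1 and 77.4 CPM, and none of them passed 1.5-fold.

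Of 5 measured lymphoid progenitor markers 1, Dntt, was at least 1.5-fold lower in KO members and none higher (median -0.27), and of 4 measured plasmacytoid dendritic cell markers 2, Irf8 and Ly6d, were lower and none higher (median -0.57), beside 2.47% of all genes in the lower direction. Mef2c, Cd74, Ctla2a and Myl10 were in none of the lists and are named for their size. Dntt stood at 218 CPM in WT and 68.7 in KO (3.17-fold lower, 2.56 to 3.94), Mef2c, a transcription factor of lymphoid and dendritic progenitors, at 87.0 and 20.4 CPM (4.26-fold lower, 2.92 to 6.38), and Ly6d, a marker of B-biased progenitors, at 51.5 and 22.9 CPM. Cd74, the invariant chain of class II molecules, stood at 70.5 and 9.29 CPM, Ctla2a, a protease inhibitor gene, at 52.5 and 6.81 CPM, and Myl10 at 53.0 and 20.4 CPM. A single KO member of 21637 UMIs held 55.9% of the Dntt and 64.9% of the Ly6d UMIs of its library, and without each library's top member Dntt stood at 180 and 30.8 CPM and Ly6d at 43.1 and 8.16 CPM. In members with at least 3 of 5 markers the gaps were 187 and 69.0 CPM for Dntt, 73.5 and 20.5 CPM for Mef2c, and 66.0 and 9.33 CPM for Cd74. In Siglech-positive and early B cells, where Dntt and Mef2c stood well above their level in the members, neither gene was lower in KO (Dntt at 1309 and 1814 CPM in early B cells). After thinning, Dntt UMIs were present in 21.5% and 6.94% of members and in 12.7% and 9.24% of ILC2. A Cd74 UMI was present in 7.50% and 1.73% of thinned members and in 12.0% and 8.89% of early B cells, which stood at 81.0 and 97.0 CPM. The part of free RNA in these genes was not tested.

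**Figure D5:**
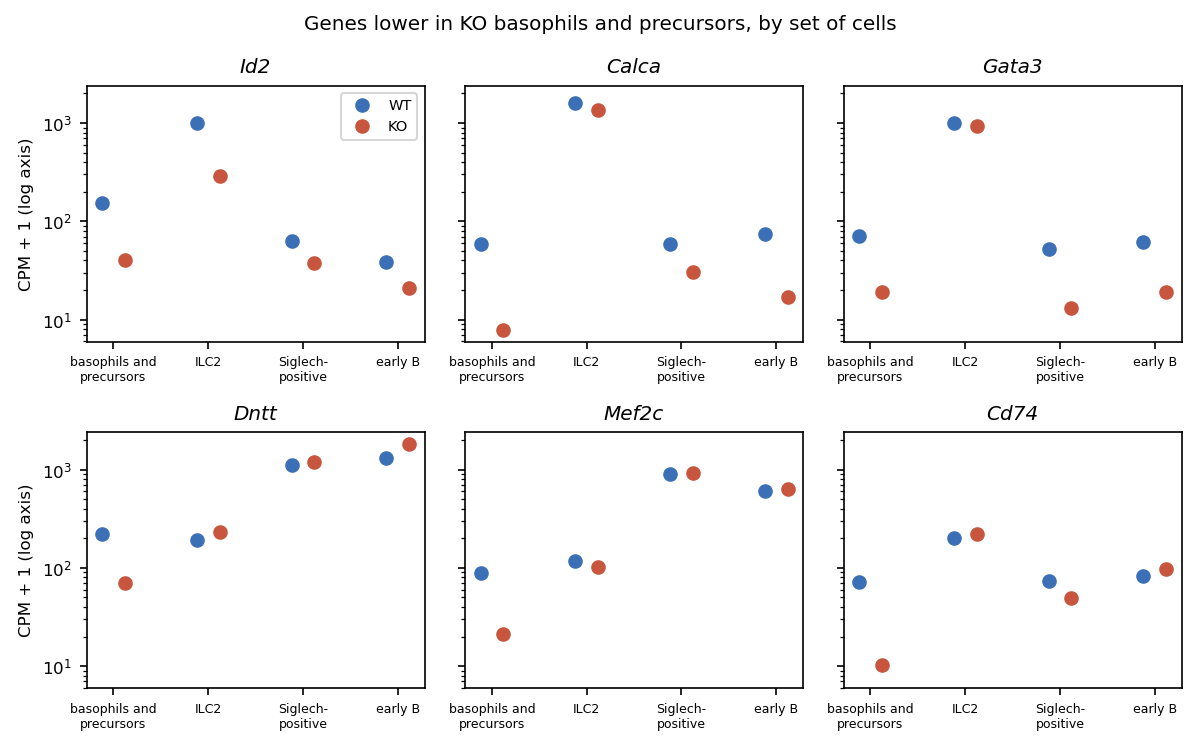
Level of 6 genes lower in KO members, as CPM + 1 on a log axis, in 4 sets of cells of the WT library (blue) and the KO library (red). Each point is a sum over cells of 1 library, and Id2 is lower in KO in all 4 sets, while Dntt and Mef2c are lower in KO in the members and not in Siglech-positive or early B cells.

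A pair of further genes named as lower in KO rested on 1 WT member. It held 84.7% of the WT UMIs of Elane, the neutrophil elastase gene, and 54.3% of those of Prtn3. Without each library's top member, Elane stood at 13.1 CPM in both libraries and Prtn3 at 44.7 and 41.1 CPM. The naming rule left out 2 of the lower genes past 2-fold, the immunoglobulin gene Igkc and the model Gm12840, and 2 of the higher, the models Gm20186 (67 and 137 UMIs) and Gm26532 (13 and 123 UMIs).

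Of 22 measured cell cycle genes, 4 were at least 1.5-fold lower in KO members and none higher, beside 2.47% of all genes in the lower direction, and the other 18 did not pass. The 4 were Ccnb1 (79.8 and 45.2 CPM), Ccnb2 (168 and 94.7 CPM) and Ccna2 (93.1 and 59.4 CPM), which encode mitotic and S phase cyclins, and Cdc20 (118 and 70.0 CPM), an activator of the anaphase-promoting complex. The median of the 22 genes was -0.37 in members. It was also below 0 in the other sets, at -0.64 in early B cells, -0.60 in ILC2 and -0.24 in Siglech-positive cells. The median was -0.20 within members with Mki67 or Top2a and 0 within those without. The latter were chosen for having no UMI of these cell cycle genes, so nothing is read from that 0.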

How the data were processed

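The deposited files give raw UMI counts for each barcode, and their headers name Cell Ranger's format (software version 3.1.0) with genome build mm10 per the submitters' processing notes. The notes also name Seurat. Its role, the alignment settings and the annotation release are not given in the sources used here. Members were found by the rule on raw UMIs, their UMIs summed per library and expressed as CPM, and KO was set against WT as log2 of CPM + 5. Called genes passed 2-fold (lists 1.5-fold) and had 50 UMIs or more in the libraries together and no less than 50 CPM in 1 of them. Intervals are exact at 95%, except the approximate upper limit given where no cell had a UMI. Shares used cells thinned to 2000 UMIs (seed 0). Doublets were not called. As alternatives, the 8% of kept barcodes with most UMIs were left out, and TMM factors (edgeR 4.0.16 in R 4.3.3) replaced totals. Python 3.11.15, scipy 1.17.1 and pandas 2.3.3 were used. The calls were also run on simulated counts with planted differences. Those counts had no spread between cells or libraries, so nothing about replicates is read from them. Gene coordinates are from GENCODE on GRCm38.

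The members and the lists were chosen with earlier results of these data known. Genes were named by a rule: rule genes and markers, 25 leading genes over the other barcodes, up to 12 highest and 12 lowest past 2-fold in KO whose counting interval excluded 1 (without sex-linked, haemoglobin, antigen receptor, mitochondrial or ribosomal protein genes or unnamed models), Id2, up to 6 genes per list, and the 12 highest and lowest of the Kit or Cd34 split. The same was done for Mki67 or Top2a after seeing the data, and some genes with opposite or single-cell behaviour were added then.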

Additional observations from a re-analysis of the deposited data

Results flagged for a closer look

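Irf8, a transcription factor of dendritic cell and monocyte progenitors, differed between KO and WT in opposite directions on the sides of the cycling split. The difference between the sides was not tested. In members with Mki67 or Top2a its log2 ratio of KO over WT was -2.98, at 55.6 CPM in WT (33 of 152 members) and 2.70 in KO (2 of 99). In members without them it was 1.04, at 42.8 CPM in WT and 93.4 in KO. On that side 1 KO member of 31747 UMIs held 40 of the 47 UMIs, and without each library's top member the levels were 37.1 CPM in WT and 14.9 in KO.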

How the results depend on the processing

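KO against WT was recomputed under 19 alternatives, of which those on weakly marked members, Gata3 or Calca, the Car1 cell, cycling and shared barcodes were chosen after seeing the data. The ratio of the members' share, 0.617, became 1.01 with 500 genes. The 21 genes higher in KO became 58 with at least 1 UMI as the only filter, 13 in thinned members, 12 without the 8% of barcodes with most UMIs and 39 in members with Kit or Cd34. The 13 lower became 78, 26 with the mean of per-cell CPM, 30 with a mitochondrial limit of 5%, 23 without the 8%, 83 without members with Cd79a, Il1rl1, Ncr1 or Klrb1c, 36 with Kit or Cd34, 25 without Mki67 or Top2a and 8 without Gata3 or Calca. Fewer cells were summed in most of these, and otherwise the cause was not tested. Id2 (log2 -1.83) lay between -2.43 (thinned) and -1.26 (with Kit or Cd34) and was -2.42 without members with Cd79a, Il1rl1, Ncr1 or Klrb1c. Ccl5 reversed to -2.57 there, and Elane to 0.31. Elane was 0.47 without Gata3 or Calca. Without Mki67 or Top2a, Elane was 0.017, Prtn3 0.63 and Mt1 -0.11. The immediate early median ranged from 0.55 to 1.13 and that of the cell cycle genes from -0.98 to 0. The 0 came from members chosen for having no Mki67 or Top2a UMI, so nothing is read from it.

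No paired analysis was possible because each genotype has 1 pooled library. That, the sort, and the shallower WT barcodes limit every comparison. For KO against WT, genes below 50 CPM in both libraries were not measured. Among the WT members, 18 had fewer than 3 markers. Scaling moved the median of all genes from -0.04 to 0.00 (TMM) and 0.01 (median of ratios).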
